A study of Oryctolagus cuniculus with 2 samples.

Results

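Antigen presentation was followed through 10 genes: RLA-DR-ALPHA and RLA-DMB, which encode rabbit class II histocompatibility chains (RLA is the rabbit major histocompatibility complex, MHC), the class I light chain B2m, the invariant chain Cd74, the regulators Ciita and Nlrc5, and the class I peptide loading genes Tap1, Tap2, Tapbp and Erap1. Their probe sets were found by gene symbol. Of these 10, 9 had a probe set that carried their symbol alone, and all 9 were among the 12724 genes measured. The symbol Tap2 was found only on a probe set that carries a second gene symbol, so no value is given for it. Retinas of Dutch rabbits at day 7 were compared between the RVO condition, in which the retinal veins of the right eye were closed with a laser, and the Control condition, the untreated left eye. In the methods the laser-treated area was cut out before RNA was taken. Each condition was measured on 1 Rabbit Gene 1.0 ST array, and the sources used here do not say whether both retinas came from the same animal. With a single array on each side the spread between animals is unknown, no difference was tested, and genes are described by the size of their difference.

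MHC class II molecules carry peptides of material taken up by a cell and show them to helper T cells, while class I molecules carry peptides made inside the cell and show them to cytotoxic T cells. In class II, an alpha and a beta chain are assembled with the invariant chain, which is cut away by lysosomal proteases before the DM molecule exchanges its last fragment for a peptide. In class I, the proteasome makes peptides, the TAP transporter moves them into the endoplasmic reticulum, and tapasin loads them onto a heavy chain paired with B2M. CIITA is the main switch of class II genes and NLRC5 is its relative for class I genes. In a healthy retina class II expression is scarce, and microglia, the resident phagocytes, are the cells best known to gain it.

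The retinal identity of both arrays was plain from rod genes: Sag, which encodes arrestin, had a log2 signal of 12.80 in the RVO array and 12.95 in the Control array. All 5 measured rod genes had a difference below 0, with a median of -0.50, and Sag had the smallest, -0.15. Markers of other tissues also differed. More than 2-fold higher in the RVO array were all 10 measured genes of skeletal muscle and 8 of 10 of fibroblasts. Lower by as much were 5 of 11 genes of retinal ganglion cells. Of all 12724 genes, 3.50% were higher and 0.479% lower by over 2-fold. A gene counted as measured when its signal reached 5 on the log2 scale in either array. Tnnc2 of muscle and Aspn of fibroblasts, with Control signals of 4.83 and 3.78, did so in the RVO array alone. Such genes can enter these counts only as higher. Differences are log2 of RVO minus Control, so that 1 is 2-fold, and over all genes their median was -0.04, with quartiles of -0.20 and 0.15. Between probe sets of the same gene the difference varied with a pooled SD of 0.19, in 118 genes with several probe sets. Each of the 9 genes described here was read from 1 probe set, so this SD is only a guide to their error and does not cover the animals.

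Both RLA genes and B2m stood highest. RLA-DR-ALPHA, RLA-DMB and B2m, 3 of the 9 measured genes of the set, were higher in RVO by over 2-fold, where 3.50% of all 12724 genes were. None of the 9 was lower by over 2-fold, where 0.479% of all genes were. At 1.5-fold Tap1 joined them, so that 4 of 9 were higher and 0 lower, against 7.25% and 3.03% of all genes. At 3-fold the count was again 3 of 9 higher and 0 lower, against 1.52% and 0.0629%. The median difference of the 9 genes was 0.51, against -0.04 over all genes. Above 0 lay 8 of the 9, where 42.8% of all genes did. Among the 8, Ciita at 0.06 and Tapbp at 0.02 lay within the spread between probe sets. Tapbp fell below 0 when quantile normalization was repeated. The differences of the 9 genes ran from -0.26 for Nlrc5 to 2.81 for RLA-DR-ALPHA. In whole retina, more cells of a type and more RNA per cell cannot be told apart.

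**Figure D1:**
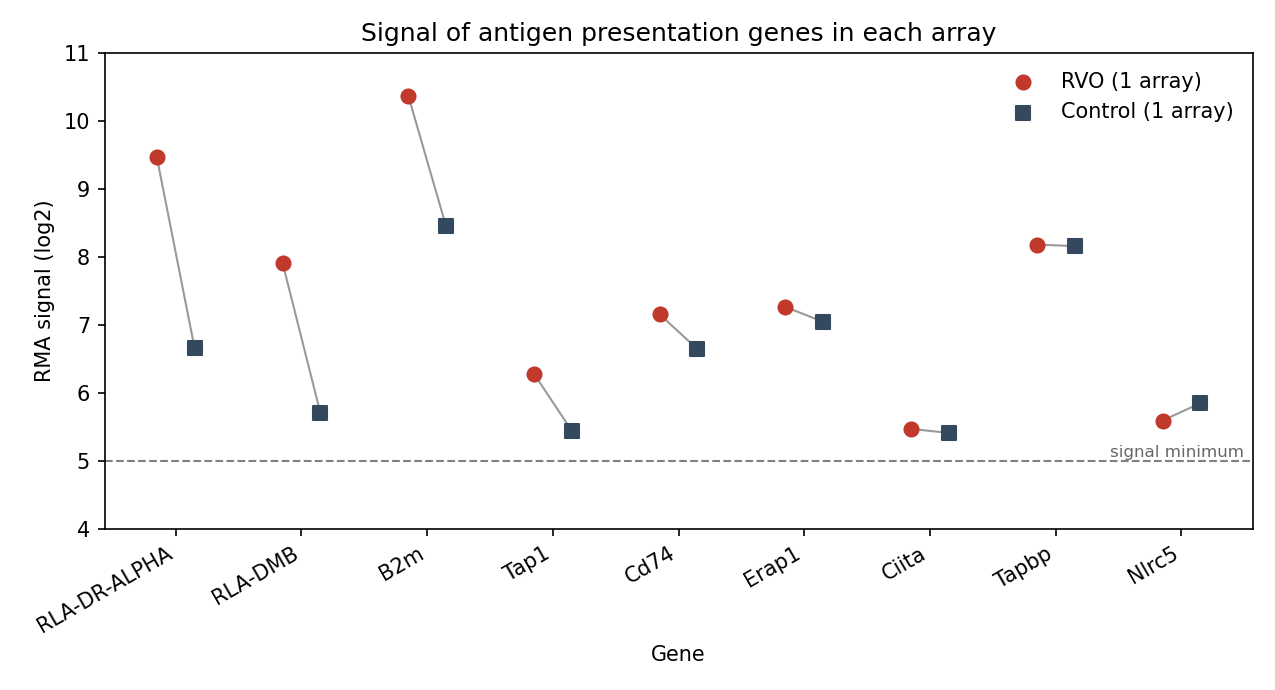
RMA signal on the log2 scale (vertical axis) of the 9 measured genes, ordered by difference, with the RVO array as circles and the Control array as squares, 1 array each and no error bars. The lines of RLA-DR-ALPHA, RLA-DMB and B2m are the steepest, those of Ciita and Tapbp are nearly flat, and Nlrc5 slopes the other way.

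RLA-DR-ALPHA, the alpha chain of the class II molecule DR, had a log2 signal of 9.46 in the RVO array and 6.66 in the Control array. The difference of 2.81, or 6.99-fold, was the 46th highest of 12724 genes. Its partner, the DR beta chain gene RLA-DRB1, had signals of 2.89 and 2.94 in the RVO and Control arrays, which are both under the signal minimum. No reading of the beta chain was therefore possible beside that of the alpha chain.

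RLA-DMB encodes the beta chain of DM, the molecule that edits class II peptides. It had a log2 signal of 7.91 in the RVO array and 5.71 in the Control array, a 4.61-fold difference. RLA-DMA, the alpha chain of the same molecule, had 6.54 in the RVO array and 5.38 in the Control array, which is 2.23-fold. Both chains of DM were thus over 2-fold higher, with the beta chain differing by 2.20 and the alpha chain by 1.16 on the log2 scale. The Control signals of both chains lie near the signal minimum of 5. This limits how well their folds, and the contrast between the chains, can be read.

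Cd74 encodes the invariant chain, which blocks the peptide groove of new class II molecules and guides them to the lysosomal route. Its log2 signal was 7.15 in the RVO array and 6.64 in the Control array, a difference of 0.51 or 1.43-fold. This lies beyond the spread between probe sets and under 2-fold, and it is smaller by 2.29 on the log2 scale than the difference of RLA-DR-ALPHA. Of 8 measured genes that supply class II peptides, Cd74 included, 3 passed 2-fold upwards and 0 downwards, against 3.50% and 0.479% of all genes. The 8 had a median of 0.78. Ctss, the cathepsin that makes the last cut of the invariant chain, had 9.34 in the RVO array and 6.54 in the Control array, a difference of 2.80. The lysosomal proteases Ctsd and Ctsb were higher by 1.59 and 1.35. Lgmn, an asparagine-specific protease that starts the cutting, differed by 0.79. The membrane ubiquitin ligases Marchf1 and Marchf8, which can remove class II molecules from the cell surface, differed by 0.03 and 0.78, and the cathepsin Ctsf by 0.07.

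Ciita had a log2 signal of 5.47 in the RVO array and 5.41 in the Control array. The difference of 0.06 lies within the spread between probe sets, at signals little above the minimum. The factors that hold CIITA at class II promoters had differences on both sides of 0. Of 7 measured genes of that complex, Ciita included, none was beyond 2-fold, where 3.50% of all genes were higher and 0.479% lower. So short a list does not stand apart from these shares. The median was 0.00, or -0.01 when quantile normalization was repeated and -0.04 with a minimum of 6. Rfx5 differed by 0.18 and Rfxap by -0.07, both subunits of the factor that binds the X box. Of the factor that binds the Y box, Nfya differed by 0.00, Nfyb by -0.30 and Nfyc by -0.08. Creb1 stood at 0.31. The differences of Creb1 and Nfyb, in opposite directions, are larger than the pooled SD of 0.19 between probe sets. This SD is only a guide to error, so they are not read as changes. The 3 measured class II chains were thus over 2-fold higher in RVO, while the signal of Ciita was nearly the same in both arrays.

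**Figure D2:**
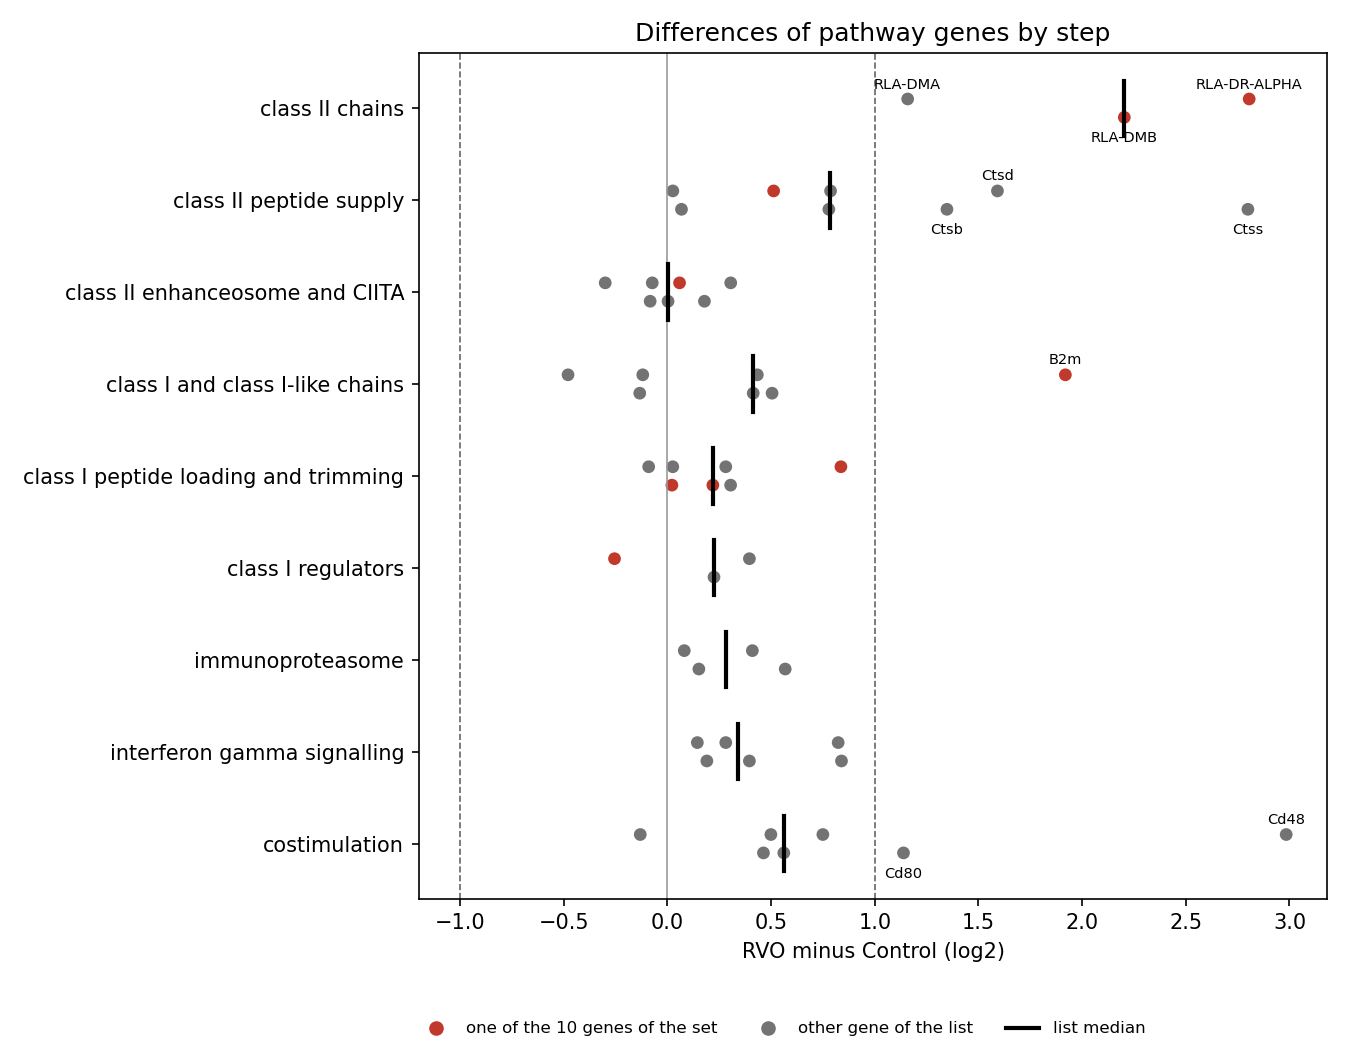
Difference of RVO minus Control on the log2 scale (horizontal axis) for each measured gene of 9 lists that follow the steps of antigen presentation, with the genes of the set in red, other genes in grey, a black bar at each list's median, and dashed lines at 2-fold. The median of the class II chains lies furthest to the right of the list medians, single genes such as Cd48 and Ctss lie as far out, and the list of Ciita and its partners is centred on 0.

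B2m, the light chain shared by all class I molecules, was the class I gene with the largest difference. It had a log2 signal of 10.37 in the RVO array and 8.45 in the Control array, a difference of 1.92 or 3.78-fold, the 129th highest. In the list of 7 measured class I and class I-like chains, B2m alone passed 2-fold, upwards, as did 3.50% of all genes. The list had a median of 0.41. It leaves out Cd1c, a class I-like chain listed here with dendritic cells, which also passed 2-fold. Cd1c had 7.34 in the RVO array and 5.55 in the Control array, a difference of 1.79. Proteins of the list that pair with B2M had smaller differences: Cd1d, which presents lipids, stood at 0.50, the Fc receptor gene Fcgrt at 0.43 and the iron regulator Hfe at 0.41. Cd1e stood at -0.48, with signals of 4.58 and 5.06 in the RVO and Control arrays. RLA-A3, a rabbit class I gene outside the lists, was looked up because of its symbol. It had 7.78 in the RVO array and 7.20 in the Control array, a difference of 0.58.

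Tap1 encodes a subunit of the transporter that carries peptides into the endoplasmic reticulum. Its log2 signal was 6.28 in the RVO array and 5.44 in the Control array, a difference of 0.84 or 1.79-fold, the 589th highest. Erap1, the peptidase that trims peptides to length, had 7.26 in the RVO array and 7.04 in the Control array, a difference of 0.22. Tapbp, which encodes tapasin, had 8.18 in the RVO array and 8.16 in the Control array. Its difference was 0.02, or -0.01 when quantile normalization was repeated. The loading genes thus fell into Tap1, which neared 2-fold, and Tapbp and Erap1, which lay at or about the spread between probe sets. The Control signal of Tap1 lies near the signal minimum of 5, which limits how well this contrast can be read. Of 7 measured genes of loading and trimming none was beyond 2-fold, where 3.50% of all genes were higher and 0.479% lower. The median of the 7 was 0.22. The tapasin relative Tapbpl stood at 0.30, the chaperone Pdia3 at 0.28, the peptidase Lnpep at 0.03 and the chaperone Canx at -0.09.

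Nlrc5 was the only gene of the set with a difference below 0. It had a log2 signal of 5.59 in the RVO array and 5.85 in the Control array, a difference of -0.26. The regulators Irf1 and Irf2, which also act on class I genes, differed by 0.40 and 0.22. The inducible proteasome subunit Psmb9 stood at 0.57 and the proteasome activator Psme1 at 0.41. None of 4 measured genes of the immunoproteasome was beyond 2-fold, where 3.50% of all genes were higher and 0.479% lower. Psmb8, another inducible subunit, was under the minimum at 4.95 in the RVO array and 4.38 in the Control array.

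**Figure D3:**
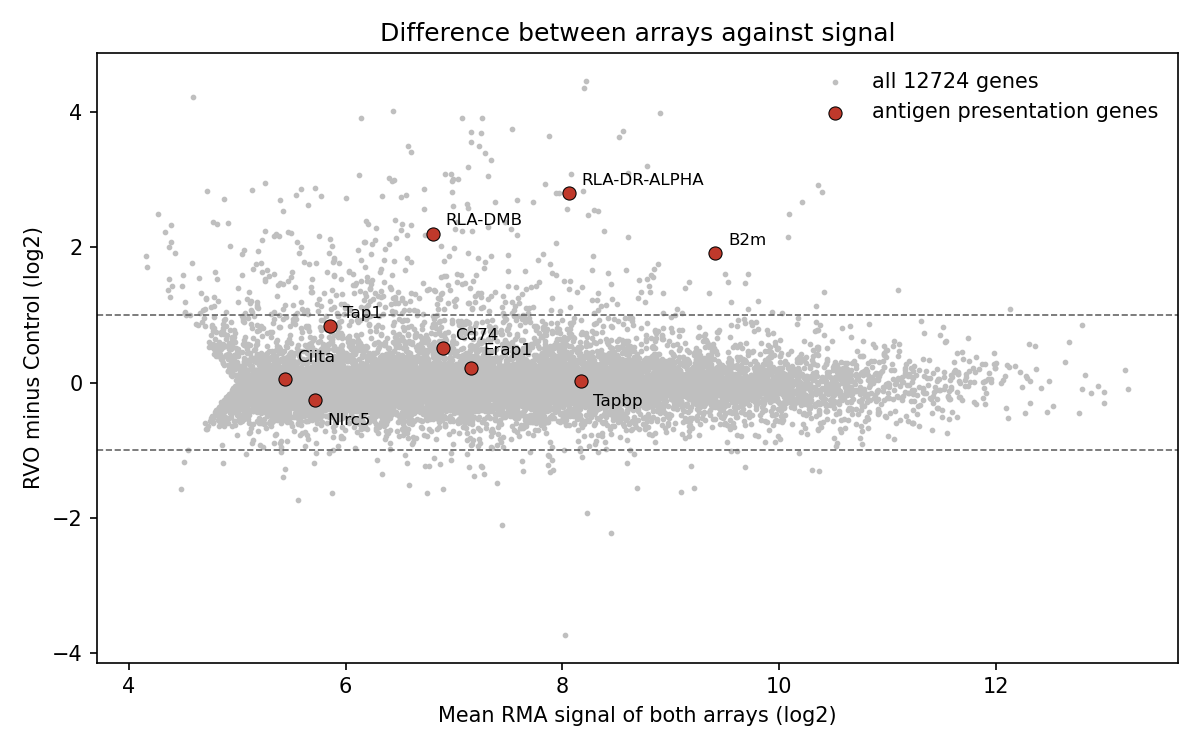
Difference of RVO minus Control (vertical axis, log2) against the mean signal of both arrays (horizontal axis, log2) for 12724 genes in grey, with the 9 genes of the set in red and dashed lines at 2-fold. RLA-DR-ALPHA, RLA-DMB and B2m lie above the body of the genes at their signal, whereas Ciita, Nlrc5, Erap1 and Tapbp lie inside it.

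Interferon gamma is the best known inducer of Ciita and of the class I loading genes. The signal of Ifng was 2.52 in the RVO array and 2.26 in the Control array, under the minimum in both. The receptor genes Ifngr1 and Ifngr2 differed by 0.84 and 0.82. Of 6 measured genes of interferon gamma signalling, none was beyond 2-fold, where 3.50% of all genes were higher and 0.479% lower. So short a list does not stand apart from these shares. The median of the 6 was 0.34. Jak1 and Jak2, the kinases of this receptor, stood at 0.19 and 0.14, and Irf8, a factor of myeloid cells, at 0.28.

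Presentation to T cells also needs costimulatory and adhesion molecules. Among 7 measured genes of this kind, 2 passed 2-fold upwards and 0 downwards, against 3.50% and 0.479% of all genes. The 7 had a median of 0.56. Cd48, a surface protein of blood cells, had a log2 signal of 8.48 in the RVO array and 5.49 in the Control array, a difference of 2.98. Cd80, which engages CD28 on T cells, had 6.34 in the RVO array and 5.20 in the Control array, a difference of 1.14. Its relative Cd86 differed by 0.75 from a Control signal of 4.43, the receptor gene Cd40 by 0.56, Cd274, which encodes the inhibitory ligand PD-L1, by 0.50 and Cd83 by -0.13. Over all lists of the pathway, without the genes of the set, 6 of 42 genes passed 2-fold upwards and 0 downwards. The median of these 42 was 0.30. Of all 12724 genes, 3.50% passed 2-fold upwards and 0.479% downwards.

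Several of these genes lie next to each other in the genome. RefSeq's gene table (assembly mOryCun1.1), used only for the order of genes, lists 37 genes on 1 chromosome from Tapbp through Tap1 and Tap2 to RLA-DR-ALPHA, of which 20 were measured. In the stretch from Tapbp to Brd2 none of 14 measured genes was beyond 2-fold, where 3.50% of all genes were higher and 0.479% lower. The differences of the 14 ran from -0.09 to 0.32. In the next stretch, from RLA-DMA to RLA-DR-ALPHA, 4 of 6 measured genes were higher by over 2-fold, against 3.50% of all genes. The lowest difference of the 6 in this stretch was 0.57, that of Psmb9. Tap1 lies between Psmb9 and Psmb8 there. The unnamed gene LOC100351163, which lies between Tap2 and RLA-DRB1, had a log2 signal of 7.88 in the RVO array and 6.62 in the Control array, a difference of 1.26. The boundary after Brd2 was chosen after the values were seen, and the stretch was set to end at RLA-DR-ALPHA, the highest gene of the set. In the second stretch 4 more genes had signals under the minimum. Their differences ran from -0.465 for LOC100349408 to 0.58 for Psmb8, and RLA-DRB1 at -0.05 was also below 0.

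**Figure D4:**
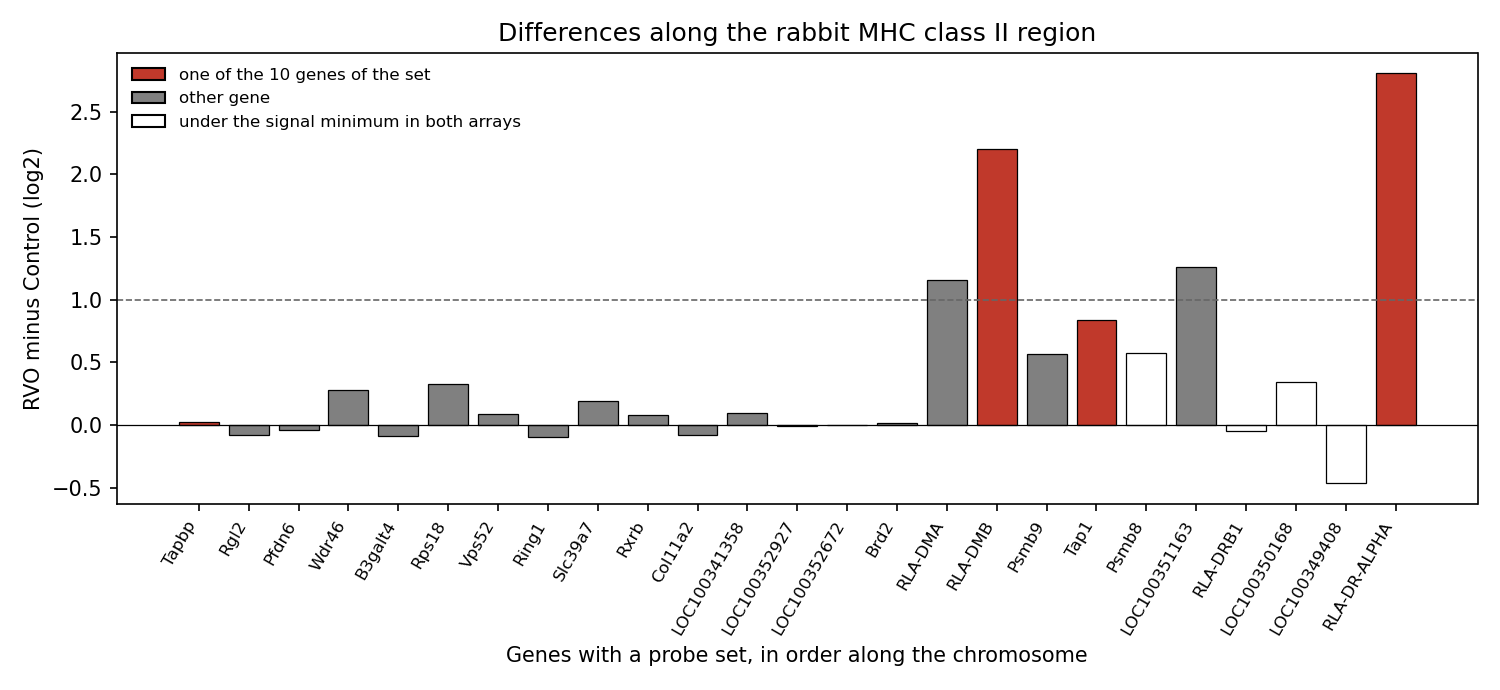
Difference of RVO minus Control (vertical axis, log2) for the genes with a probe set from Tapbp to RLA-DR-ALPHA, in the order of the RefSeq table and not to scale, with genes of the set in red, other genes in grey, genes under the signal minimum in white, and a dashed line at 2-fold. Bars from Tapbp to Brd2 stay near 0, and the 4 that pass the line all lie from RLA-DMA to RLA-DR-ALPHA.

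The genes with the most similar pair of signals were found by the distance between their log2 signals over the 2 arrays, a measure that also depends on how brightly each probe set reads and does not show shared expression. For RLA-DR-ALPHA the 5 nearest were Tnnc1, Ctss, Mnda, Cd14 and Prrg4, at distances of 0.14 to 0.20. For B2m the 5 nearest were Cd63, Lgals1, S100a10, Gadd45a and Anxa5, at distances of 0.26 to 0.48.

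Markers of the cells that could carry these transcripts moved unequally. Among 19 measured markers of microglia and macrophages, 12 passed 2-fold upwards and 0 downwards, against 3.50% and 0.479% of all genes. The 19 markers had a median of 1.32. Their summed signal was 12.29 in the RVO array and 10.75 in the Control array on the log2 scale. Cd68 had 8.66 in the RVO array and 6.39 in the Control array, and Aif1, which encodes IBA1, had 7.83 in the RVO array and 5.64 in the Control array. P2ry12, a receptor of resting microglia, differed by 1.10 and the microglial gene Tmem119 by 0.09. The part of these cells in the differences of class II genes was not tested.

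Most markers of the other cells that present antigen lay within 2-fold, as did most of all genes. Only 3.50% of all 12724 genes were higher and 0.479% lower by over 2-fold, so these short lists do not stand apart from that share. Of 8 measured markers of dendritic cells, Cd1c was beyond 2-fold, at 7.34 in the RVO array and 5.55 in the Control array, and the median of the list was -0.06. Itgax differed by 0.22, Zbtb46 by -0.09 and Ccr7 by 0.00. Of 7 markers of B lymphocytes with a probe set, 4 reached the minimum and none was beyond 2-fold, and Ms4a1, which encodes CD20, was under it in both arrays with a difference of -0.18. The 4 had a median of -0.02, with 2 above 0 and 2 below. They ran from -0.41 for Cd79b to 0.66 for Cd22, whose Control signal of 4.82 was under the minimum. The highest of the 7 signals was 5.48 in either array. For T lymphocytes, the cells to which peptides are shown, 5 of 12 markers reached the minimum, none was beyond 2-fold and the median was -0.24. Cd4 had 4.50 in the RVO array and 4.71 in the Control array, and Cd8b had 4.56 in the RVO array and 4.85 in the Control array. Signals this low say little about lymphocytes. Summed signals were 9.16 and 8.92 for dendritic cells, 7.69 and 7.70 for B lymphocytes and 8.12 and 8.38 for T lymphocytes, in the RVO array and the Control array in that order.

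Among other cells that can gain class II molecules, 1 of 7 measured endothelial markers was higher by over 2-fold, Pecam1 at 1.03. The 7 had a median of 0.05, and 3.50% of all genes were higher by over 2-fold. None of 9 markers of Müller glia, the main glia of the retina, was beyond 2-fold, as was true of most genes. The median of the 9 was 0.49. These markers were split, with 6 above 0 and 3 below, from -0.67 for Rlbp1 to 0.85 for Clu. Of 7 neutrophil markers, 3 were above 0 and 4 below, with a median of -0.10. Higher by over 2-fold were 2, Cxcr1 by 1.12 and S100a8 by 2.09. S100a8 had 5.44 in the RVO array and a Control signal of 3.35 that lies under the minimum. Cxcr2 differed by 0.06 and S100a9 by -0.10, and the lowest was Mpo at -0.34. The muscle and fibroblast markers of the same array had medians of 2.79 and 1.31, with summed signals of 12.35 in the RVO array and 9.32 in the Control array for muscle and 12.51 in the RVO array and 10.09 in the Control array for fibroblasts. Housekeeping genes had a median of -0.07 over 9 genes. The part of muscle and connective tissue in the differences of B2m and the class II genes was not tested.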

How the data were processed

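Retinal RNA of the RVO and Control conditions was measured on 1 array each, and the number of arrays limits the precision. The authors deposited log2 signals from RMA in R, which corrects background, equalizes the distributions of both arrays and summarizes probe sets, with an annotation that the sources used here do not name. The values were used as they stand. Of 26193 probe sets, 15816 carry 1 symbol in the platform annotation, 376 several and 10001 none, and genes were named from those with 1 symbol. A gene was read from its probe set of highest mean signal and kept when either array reached 5. A gene counted as higher or lower beyond 2-fold. The median signal was 6.23 in the RVO array and 6.25 in the Control array. The genes and lists were chosen with earlier results of these data known. Named were the 10 genes, the pathway genes of the lists, and the 5 genes nearest to RLA-DR-ALPHA and to B2m. Calculations used Python 3.11.15, pandas 2.3.3 and statsmodels 0.14.6, and were tested on simulated data. Alternatives were other signal minimums, other folds, the mean of all probe sets, repeated quantile normalization, centring on the median, and removal of the trend with signal by lowess.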

Additional observations from a re-analysis of the deposited data

How the results depend on the processing

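No paired analysis was possible because each condition has 1 array. RLA-DR-ALPHA stayed between 2.80 and 2.83, RLA-DMB between 2.20 and 2.26 and B2m between 1.92 and 1.94 over 6 alternatives each. Each of these genes was read from 1 probe set with an RVO signal above 6. The other minimums and the mean of all probe sets therefore could not change their values, and only the changes of normalization could. Under each alternative 3 of the measured genes of the set were higher by over 2-fold. Tapbp was the only gene of the set whose sign changed, to -0.01. With a minimum of 6, Ciita and Nlrc5 were left out and the median of the set was 0.84, while that of costimulation was 0.80. With no minimum, the median was 1.68 for class II chains, since RLA-DRB1 then entered, and 0.15 for class I chains. At 1.5-fold, 5 genes of class II peptide supply, 1 of class I loading and 2 of interferon gamma signalling were higher, and 923 of all genes were higher and 386 lower. At 3-fold, 1 costimulation gene was higher, and 194 of all genes were higher and 8 lower. The signals of Ciita and Nlrc5 lie near the minimum, which limits what their small differences can show.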
